A study of Mus musculus with 70 samples.

Results

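The genes described here are 10 transcripts by which astrocytes are commonly recognised, *Slc1a2*, *Slc1a3*, *Glul*, *Aqp4*, *Gja1*, *Gfap*, *Vim*, *S100b*, *Aldh1l1* and *Sox9*. They were taken by symbol from the 24346 genes of the deposited table, all 10 were found, and all 10 passed the minimum of a mean of 1 FPKM that 12994 genes passed. FPKM are fragments counted per kilobase of transcript and scaled to the mapped fragments of the library. Each gene was followed across 70 bulk RNA-seq libraries of dorsal hippocampus from adult male C57BL/6J mice, 10 in each of 7 groups, with 5 libraries of every group from each of 2 harvest cohorts.

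Groups are named by days of initial voluntary wheel running, days of sedentary delay and days of reactivating running. The running groups were 0-0-2, 14-0-0, 14-14-0, 14-7-0 and 14-7-2. Sedentary mice (0-0-0) had no running, and they and all running groups went through a 3-min object location memory (OLM) session, too short to leave a lasting memory by itself, 1 h before the tissue was taken. Home cage mice had neither running nor OLM. Wheels were taken away the night before OLM, and the labels name no transgene. The question put to these genes was whether running, a delay after it, or a return to it goes with a change in astrocyte transcripts during the hour after training.

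Astrocytes take up the glutamate that neurons release, turn it into glutamine and return it, buffer potassium and water at their endfeet on blood vessels, and are joined to one another by gap junctions. When tissue is injured or inflamed they become reactive, and the intermediate filament genes *Gfap* and *Vim* then rise. In the hippocampus, radial stem cells of the dentate gyrus share several of these transcripts, and ependymal cells, oligodendrocyte lineage cells and the thalamus next to the hippocampus express some of them too. In bulk tissue, fewer astrocytes and less RNA per astrocyte cannot be told apart.

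No member differed from sedentary mice in any group after Benjamini-Hochberg adjustment over all genes tested. At an unadjusted p under 0.05 (called here; limma, two-sided), 3 of 60 tests against sedentary were called. In these 6 comparisons between 2.3% and 9.15% of all genes were called. The study set that threshold on another test, Cyber-T, and under a regularized test written after its formula 0 of the 60 were called. The 3 called by limma were *Slc1a3*, lower in 14-7-2, *Gfap*, higher in 14-7-2, and *Aqp4*, higher in home cage mice. *Slc1a3* and *Glul* were also called lower in 14-7-2 than in 14-7-0, the same schedule without the 2 reactivating days. *S100b*, *Slc1a3* and *Glul* were called lower in the second harvest cohort, with adjusted p of 0.121, 0.222 and 0.258.

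The promoters of *Slc1a3*, *Glul*, *S100b* and *Gfap* are shown, since these 4 genes carry most of the calls. Each is the stretch of 250 bases before the RefSeq start site, 5′ to 3′ on the strand of the gene, in build GRCm38.p6, the mouse build (mm10) that the submitters' processing notes name. *Slc1a3* lies at chr15:8634124-8710807 on the minus strand with its window at chr15:8710808-8711057, and *Glul* at chr1:153899929-153909723 on the plus strand with its window at chr1:153899679-153899928. *S100b* lies at chr10:76253836-76261319 (plus strand, window chr10:76253586-76253835), and *Gfap* at chr11:102887336-102897200 (minus strand, window chr11:102897201-102897450). Capitals mark matches on either strand to 4 short motifs: TATAAA (the TATA box), TTGGC (a half-site of nuclear factor I), AACAAT (a core bound by SOX proteins) and TTCNNNGAA (a site of STAT proteins).
Slc1a3: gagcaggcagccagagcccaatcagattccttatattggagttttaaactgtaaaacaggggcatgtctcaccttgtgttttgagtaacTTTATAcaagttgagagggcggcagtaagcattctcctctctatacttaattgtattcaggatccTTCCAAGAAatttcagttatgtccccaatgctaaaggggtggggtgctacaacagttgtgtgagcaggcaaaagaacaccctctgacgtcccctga
Glul: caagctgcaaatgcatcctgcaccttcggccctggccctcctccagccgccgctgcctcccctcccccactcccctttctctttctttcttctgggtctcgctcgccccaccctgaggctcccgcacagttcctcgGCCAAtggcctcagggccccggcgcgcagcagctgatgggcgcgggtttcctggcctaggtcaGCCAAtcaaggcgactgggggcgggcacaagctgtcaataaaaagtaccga
S100b: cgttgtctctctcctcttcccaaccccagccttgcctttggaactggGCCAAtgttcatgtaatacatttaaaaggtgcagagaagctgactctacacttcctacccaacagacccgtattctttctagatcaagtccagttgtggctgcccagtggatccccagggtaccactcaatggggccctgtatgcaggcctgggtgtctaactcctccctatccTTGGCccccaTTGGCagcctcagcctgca
Gfap: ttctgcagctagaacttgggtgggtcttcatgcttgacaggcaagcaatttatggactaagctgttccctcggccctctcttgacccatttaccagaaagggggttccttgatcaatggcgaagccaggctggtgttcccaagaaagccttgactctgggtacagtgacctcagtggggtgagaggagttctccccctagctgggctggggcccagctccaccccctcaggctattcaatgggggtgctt

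The *Slc1a3* window holds a match to TATAAA on the opposite strand, 161 to 156 bases before the start, and a match to TTCNNNGAA, 96 to 88 bases before it. *Glul* holds 2 matches to TTGGC and *S100b* 3, while the *Gfap* window holds none of the 4 motifs. Of all 32851 RefSeq windows of this length, 12.4% hold TATAAA, 41.5% TTGGC, 9.42% AACAAT and 7.02% TTCNNNGAA. Promoter windows were at hand for 8 of the 10 genes and missing for *Aqp4* and *Sox9*, which do have listed positions. TTGGC matches stood in 4 of those 8 windows (*Glul*, *S100b*, *Slc1a2* and *Vim*) and AACAAT in none. The *Slc1a2* window (chr2:102706188-102706437, plus strand) lies inside the listed span of the gene (chr2:102658239-102790784), not before its 5′ end. A match describes the letters of the window and shows no binding.

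Some libraries stood apart before any comparison was made. Sedentary replicate 6 had summed levels of 520 FPKM for 12 genes of hippocampal neurons, against 1725 to 2795 in the other 69 libraries, and of 336 for 10 thalamus genes. The thalamus sum was also high in 14-14-0 replicate 3 (221), 0-0-2 replicate 4 (191) and 14-7-2 replicate 3 (168), and 94.96 or less in the rest. Choroid plexus transcripts varied from 59.0 to 24736 FPKM. All 10 genes of that list had an unadjusted limma p under 0.05 and were higher in 14-0-0 and in 14-14-0 than in sedentary. Of all genes tested, 6.11% and 3.19% were called higher in these 2 comparisons. In 14-7-0 replicate 4, 10279 genes were listed at 0, against 6243 to 7199 in the others, and its relative depth, read from the step size of the lowest values with sedentary replicate 0 set to 1, was 0.0361, against 0.346 to 1.48. Read counts are not in the table, so no counting error is given.

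All 10 genes were detected in every library, the lowest value being 3.06 FPKM (*Sox9*). Levels can be set side by side because FPKM are per transcript length. Over all 70 libraries, *Glul* averaged 648 ± 76.1 FPKM (SD, n = 70), *Slc1a2* 323 ± 45.5 and *Slc1a3* 179 ± 15.8. *Gfap* averaged 155 ± 25.7, *Gja1* 88.5 ± 8.17, *S100b* 65.1 ± 8.76 and *Aqp4* 39.8 ± 4.47. *Vim* averaged 23.5 ± 4.49, *Aldh1l1* 15.8 ± 2.05 and *Sox9* 5.28 ± 1.12. The enzyme and the transporters of glutamate handling were thus the most abundant, and the transcription factor *Sox9* the least.

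**Figure D1:**
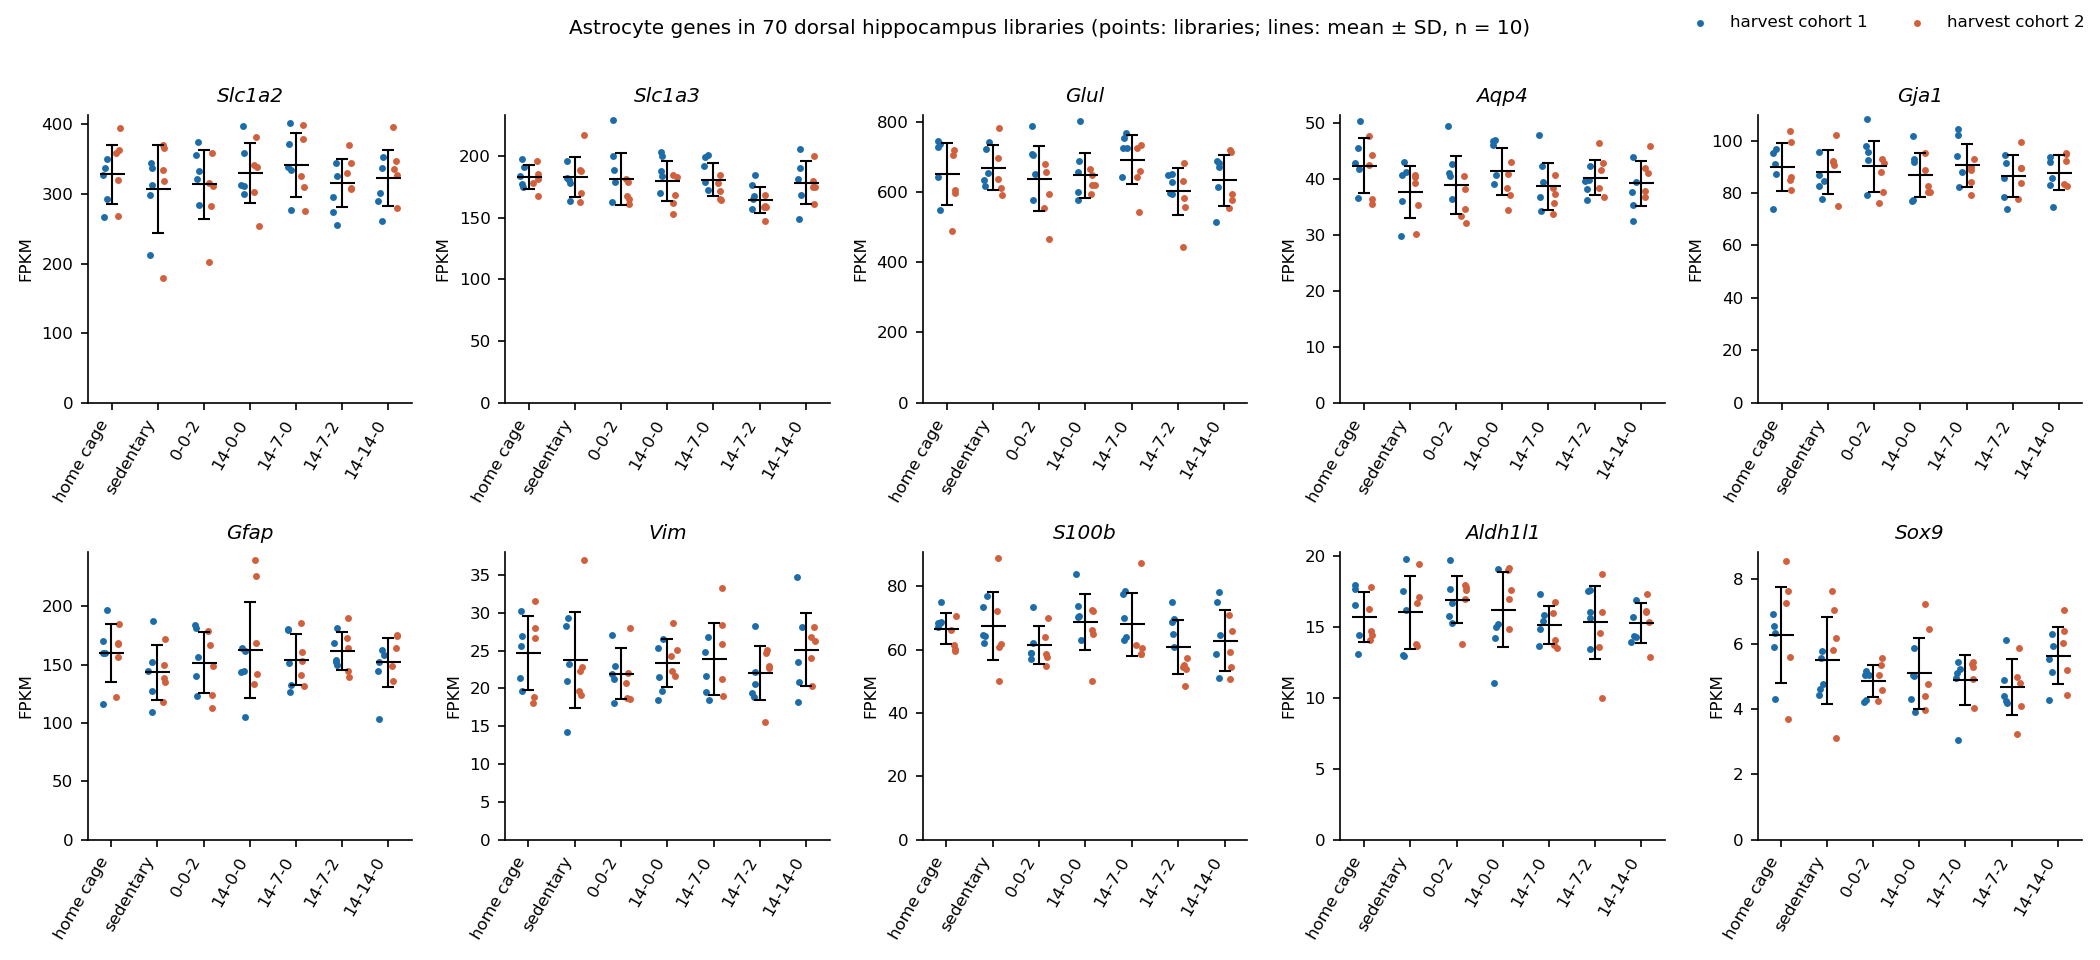
FPKM of each astrocyte gene (y axis, from 0) in the 7 groups (x axis), with 1 point per library coloured by harvest cohort and lines for the mean ± SD of 10 libraries. The groups overlap in every gene, and the lowest *Slc1a2* point, 179 FPKM, is sedentary replicate 6.

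The groups were close together in level. The highest group mean lay above the lowest by 4.83% for *Gja1*, by 11.1% to 14.95% for 8 of the others and by 33.9% for *Sox9*. With the 7 group means of a gene put in order, the gap between neighbours exceeded the smaller of their SDs in 1 of 60 cases. That case was *Slc1a3*, whose lowest mean, in 14-7-2, stood apart from the next, in 14-14-0. The within-group SD of log2(FPKM + 0.1) ran from 0.12 for *Slc1a3* to 0.28 for *Sox9*, against a median of 0.22 over all genes tested. Groups accounted for 3.67% of the variance of *Gja1* and up to 18.7% of that of *Sox9*, against a median of 7.33% over all genes and 8.70% expected from the degrees of freedom alone.

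*Slc1a3* encodes GLAST, one of the 2 main glutamate transporters of astrocytes. Its FPKM were 147 to 185 in 14-7-2 (median 162), 164 to 201 in 14-7-0 (median 179) and 163 to 217 in sedentary (median 182). In home cage mice they were 167 to 198 (median 183), in 14-0-0 153 to 204 (median 184), in 14-14-0 149 to 206 (median 177) and in 0-0-2 161 to 229 (median 179). The 14-7-2 libraries were the lowest set, but they overlapped with every other group. In 14-7-2, *Slc1a3* fell by 0.15 on the log2 scale against sedentary (SE 0.054, p = 0.0114, adjusted p = 0.847), a difference of -9.94% (95% interval -16.7% to -2.59%). In 9 of 10 libraries it was below the sedentary median. The value was called whichever of the 20 libraries was left out, with p between 0.00538 and 0.0245, but not under the Cyber-T form of the test (p = 0.15). Within harvest cohorts it was -0.083 in the first (p = 0.246) and -0.22 in the second (p = 0.0376), and the cohorts' effects did not differ past the threshold (interaction p = 0.229).

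*Slc1a2* encodes GLT-1, the most abundant glutamate transporter of the forebrain. Its FPKM were 256 to 371 in 14-7-2 (median 318), 276 to 403 in 14-7-0 (median 337) and 254 to 397 in 14-0-0 (median 326). They were 179 to 370 in sedentary (median 326), 262 to 396 in 14-14-0 (median 331), 203 to 375 in 0-0-2 (median 319) and 268 to 396 in home cage (median 332). It was called in no comparison between groups. The 2 transporters were therefore also set against each other within each library. The ratio of *Slc1a2* to *Slc1a3* was 1.82 ± 0.265 over all libraries (SD, n = 70), from 0.826 in sedentary replicate 6 to 2.42 in a 14-7-0 library. Its group means ran from 1.70 ± 0.375 in sedentary, or 1.79 ± 0.229 without replicate 6 (n = 9), to 1.93 ± 0.228 in 14-7-2, less than 1 SD apart.

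*Glul* encodes glutamine synthetase, which turns the glutamate taken up by astrocytes into glutamine. Its FPKM were 444 to 683 in 14-7-2 (median 614), 544 to 769 in 14-7-0 (median 726) and 592 to 783 in sedentary (median 645). They were 490 to 746 in home cage mice (median 675), 578 to 802 in 14-0-0 (median 634), 516 to 719 in 14-14-0 (median 643) and 466 to 788 in 0-0-2 (median 654). The 14-7-0 libraries were the highest by median and the 14-7-2 libraries the lowest, with overlap. Against sedentary, the 14-7-2 difference was -0.15 on the log2 scale (SE 0.075, p = 0.053, adjusted p = 0.847) and not called. Without sedentary replicate 6 it was -0.16 and called (p = 0.0461), and it was called on leaving out any of 7 of the 20 libraries in turn.

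Against 14-7-0, which shares the initial running and the delay, *Slc1a3* and *Glul* were the 2 of 10 members called in 14-7-2, both lower. In that comparison 5.39% of all genes were called and 3.36% were called lower. *Slc1a3* fell by 0.14 on the log2 scale (SE 0.048, p = 0.00935, adjusted p = 0.66), with 9 of 10 libraries below the 14-7-0 median. *Glul* fell by 0.20 (SE 0.077, p = 0.0154, adjusted p = 0.743), a difference of -13.1% (95% interval -22.2% to -2.94%), with 10 of 10 libraries below that median. Both stayed called on leaving out each of the 20 libraries in turn, with highest p of 0.0206 and 0.029, the library of low depth among those left out. Under the Cyber-T form of the test *Glul* was still called (p = 0.0412) and *Slc1a3* was not (p = 0.14). The cohorts gave like values, -0.15 and -0.12 for *Slc1a3* (p = 0.0466 and 0.0631) and -0.21 and -0.20 for *Glul* (p = 0.0199 and 0.176). *S100b* differed by -0.16 and was not called (p = 0.0858), but was called without 14-7-2 replicate 3, one of the libraries high in thalamus markers (-0.19, p = 0.0355), and with harvest cohort as a covariate (p = 0.0432).

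Transcripts of other glia were lower in the same comparison. Of 10 oligodendrocyte genes, 6 were called lower in 14-7-2 than in 14-7-0 and all 10 had negative differences (median -0.32), with summed levels of 1569 to 3784 FPKM against 2723 to 4351. Of 10 microglia genes, 2 were called lower and all 10 were negative (median -0.13), with summed levels of 191 to 250 against 218 to 273. No marker of either list was at 0 in any group. The median over the 10 astrocyte members was -0.089, against 0.0033 over all genes tested. The part of these other cells in the astrocyte values was not tested.

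*Gfap*, the intermediate filament protein of astrocytes, was 139 to 189 FPKM in 14-7-2 (median 159), 109 to 188 in sedentary (median 142) and 126 to 186 in 14-7-0 (median 152). In 14-0-0 it was 105 to 240 (median 153), in 14-14-0 104 to 176 (median 155), in 0-0-2 113 to 184 (median 153) and in home cage 116 to 197 (median 164). The sedentary group had the lowest mean and median, and the 2 highest libraries of all were 14-0-0 libraries of the second cohort. In 14-7-2 *Gfap* was higher than in sedentary by 0.18 on the log2 scale (SE 0.087, p = 0.0486, adjusted p = 0.847), or 13.5% (95% interval 0.0864% to 28.6%), with 9 of 10 libraries above the sedentary median. This call was lost on leaving out any of 13 of the 20 libraries, and without sedentary replicate 6 the difference was 0.15 (p = 0.0887). Within cohorts it was 0.18 and 0.19 and called in neither (p = 0.197 and 0.162). In 14-0-0 the mean was 163 ± 41.2 FPKM, the widest spread of the 7 groups, and the difference from sedentary, 0.16, was not called (p = 0.221). Fitted together with a choroid plexus score, that difference became 0.32 and was called (p = 0.0473). The score of a library was the mean log2(FPKM + 0.1) of the 10 choroid plexus genes, each centred on its mean over all libraries.

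Against sedentary, 2 of 10 members were called in 14-7-2, where 4.39% of all genes were called. None was called in 14-0-0 (background 9.15%), 14-7-0 (3.26%), 14-14-0 (4.95%) or 0-0-2 (2.37%), and 1 in home cage (2.3%). These 6 comparisons share the sedentary libraries, so their values are not independent. Over the 60 tests the log2 differences lay between -0.21 and 0.19, with a smallest adjusted p of 0.593. The 95% intervals reached from -0.49 to 0.51, that is from -28.9% to 42.8%, and 59 of 60 lay wholly within ±0.5 and 34 within ±0.3. Leaving out sedentary replicate 6, 2 of 60 tests were called, *Slc1a3* and *Glul*, both in 14-7-2.

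**Figure D2:**
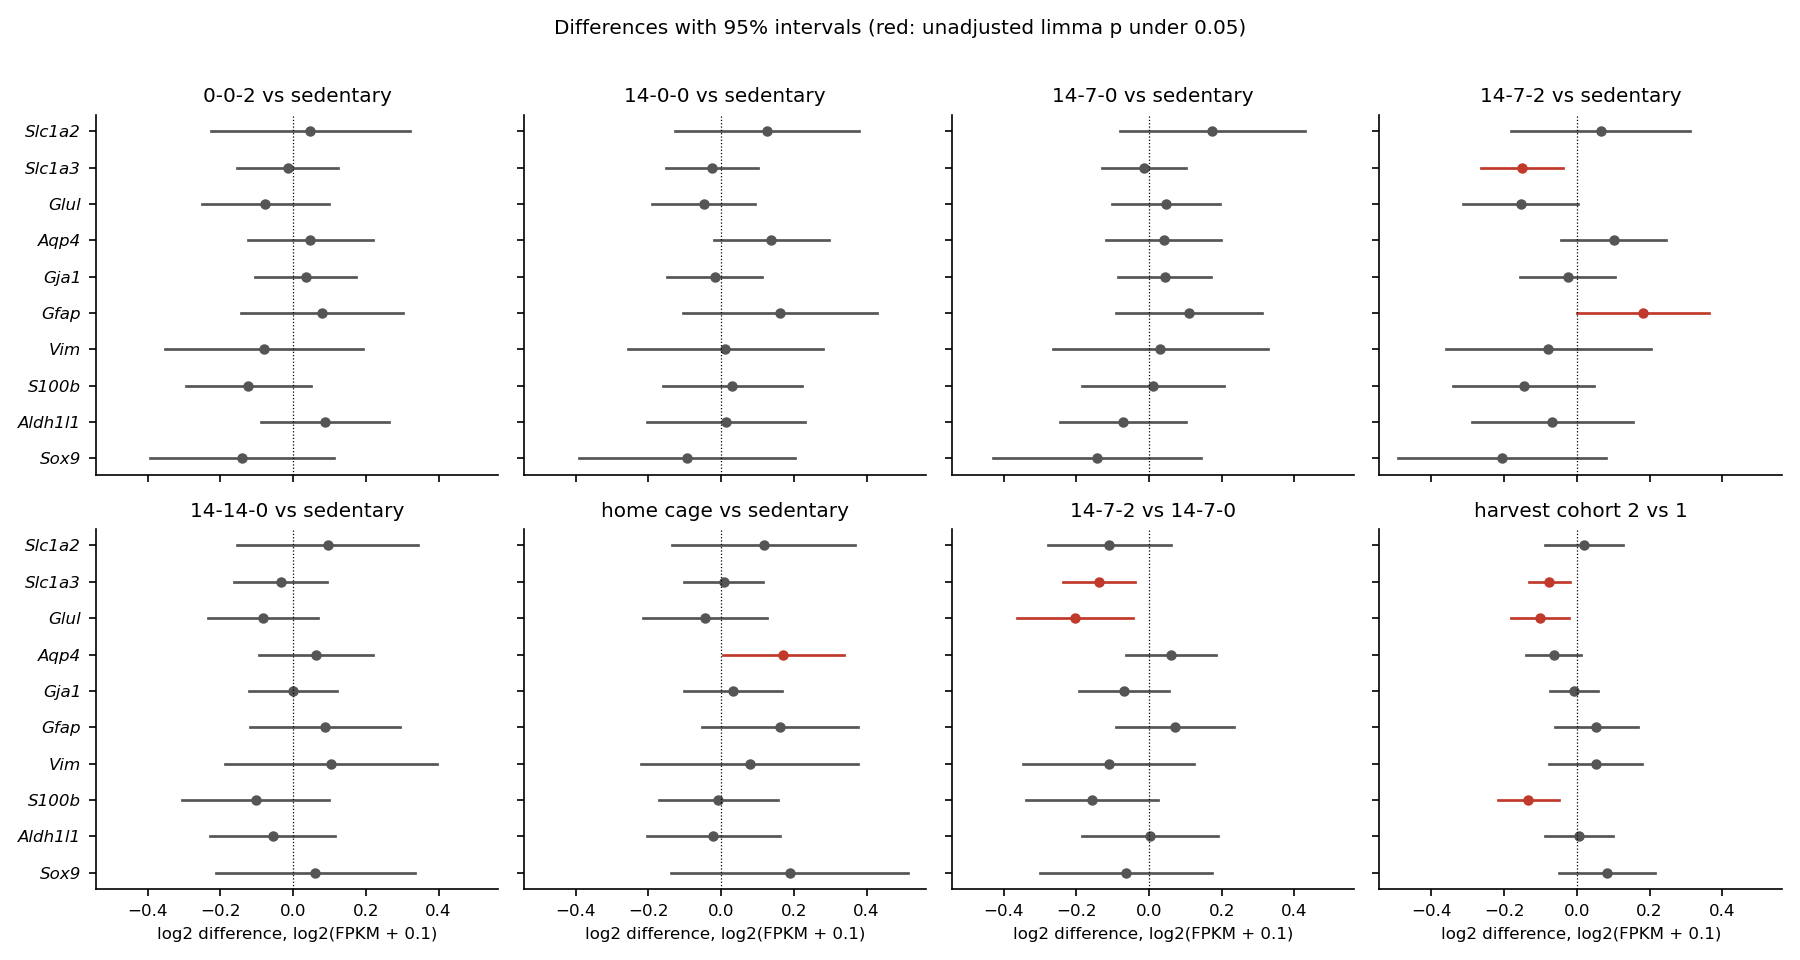
Log2 differences of the 10 astrocyte genes on log2(FPKM + 0.1) (x axis, points, with 95% intervals as lines) for 7 comparisons between groups and for the harvest cohorts, with called genes in red. *Slc1a3* was called in 14-7-2 against sedentary (-0.15) and against 14-7-0 (-0.14), and the red intervals of *Gfap* and *Aqp4* end close to 0.

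*Aqp4*, the water channel of the endfeet, was 35.5 to 50.4 FPKM in home cage mice (median 42.7) and 29.8 to 43.0 in sedentary mice (median 39.8). In 14-7-2 it was 36.2 to 46.4 (median 39.7), in 14-7-0 33.7 to 47.9 (median 37.8) and in 14-0-0 34.4 to 47.0 (median 40.8). In 14-14-0 it was 32.5 to 45.8 (median 38.7) and in 0-0-2 32.1 to 49.4 (median 39.4). Home cage libraries were the highest by mean and sedentary the lowest, with wide overlap. Home cage mice, which had no OLM session, were higher than sedentary by 0.17 on the log2 scale (SE 0.079, p = 0.0424, adjusted p = 1). That call was lost on leaving out any of 11 of the 20 libraries, sedentary replicate 6 among them (0.14, p = 0.0832). Within cohorts the difference was 0.19 and 0.15 (p = 0.121 and 0.212). In the same comparison 2.3% of all genes were called. Of 10 choroid plexus genes 5 were called higher (summed levels 139 to 17380 FPKM in home cage, 75.1 to 504 in sedentary). Of 8 genes of meninges and fibroblasts 4 were called higher (29.0 to 193 against 17.9 to 58.8). Fitted together with the choroid plexus score, *Aqp4* differed by 0.17 and was not called (p = 0.0742), while *Gfap* was (0.24, p = 0.0418). The gap junction gene *Gja1*, which encodes connexin 43, was called nowhere, and its group means lay between 86.4 and 90.6 FPKM.

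The rest of the members were called against no group. *Vim* was 14.3 to 36.9 FPKM over the 70 libraries, and both ends were sedentary libraries (replicates 2 and 6). *Aldh1l1*, which encodes a folate enzyme used to mark astrocytes, was 10.01 to 19.8. *S100b*, a calcium-binding protein, was 48.6 to 88.8, with its highest value in sedentary replicate 6. *Sox9*, a transcription factor that sets astrocyte identity, was 3.06 to 8.55, lowest in the 14-7-0 library of low depth and highest in a home cage library. *Sox9* was the 1 of 10 members called in the test for any difference among the 7 groups (F = 2.47, p = 0.0323, adjusted p = 0.575), which called 7.63% of all genes. Its group means ran from 4.69 ± 0.857 FPKM in 14-7-2 to 6.28 ± 1.47 in home cage, and it was called in no pair tested.

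After 14 days of running, a further 14 sedentary days left no member called (14-14-0 against 14-0-0, 0 of 10, background 7.16%). The differences lay between -0.13 for *S100b* (95% interval -0.32 to 0.054) and 0.15 for *Sox9* (-0.082 to 0.39). *Aqp4* was -0.22 in the first cohort and 0.070 in the second, and was the 1 of 10 members whose cohorts differed at an unadjusted p under 0.05 (interaction p = 0.0251, adjusted p = 0.22), where 17.3% of all genes did.

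Between the harvest cohorts 3 of 10 members were called, all lower in the second cohort, where 11.9% of all genes were called and 8.29% were called lower. *S100b* averaged 68.02 ± 7.26 FPKM in the first cohort and 62.3 ± 9.27 in the second (n = 35 each), and fell by 0.13 on the log2 scale (SE 0.042, p = 0.00224, adjusted p = 0.121), with 27 of 35 libraries below the first cohort's median. *Slc1a3* averaged 183 ± 16.1 and 174 ± 14.3 (log2 difference -0.076, p = 0.0094, adjusted p = 0.222). *Glul* averaged 670 ± 69.2 and 626 ± 77.2 (log2 difference -0.10, p = 0.0135, adjusted p = 0.258). Without sedentary replicate 6, which is in the second cohort, *S100b* fell by 0.15 and passed adjustment (adjusted p = 0.0457). The cohort differences of these 3 genes were thus of the same order as the differences between groups, and every group holds 5 libraries of each cohort.

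Sedentary replicate 6 set the range of several members. Its *Slc1a2*, 179 FPKM, was below the other 9 sedentary libraries (212 to 370) and the lowest of all 70, at 0.564 of the geometric mean of those 9. Its *Vim* (36.9 FPKM, 1.69 times), *S100b* (88.8, 1.37 times), *Sox9* (7.64, 1.48 times) and *Slc1a3* (217, 1.21 times) were above the other 9. The remaining 5 members were within the range of the others. That library also held 7525 FPKM of oligodendrocyte markers, against 1861 to 4132 in the other 9, and 253 of ependymal markers. The part of these other cells in its astrocyte values was not tested.

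**Figure D3:**
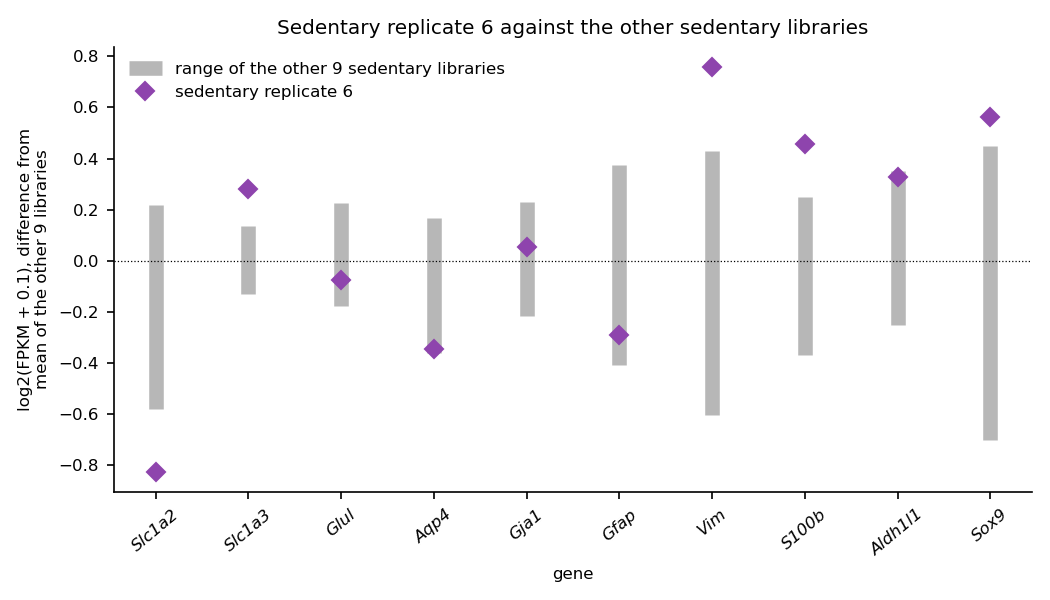
Log2(FPKM + 0.1) of the 10 genes in sedentary replicate 6 (diamonds) relative to the mean of the other 9 sedentary libraries, whose range is the grey bar. *Slc1a2* lies below that range (-0.83), while *Slc1a3*, *Vim*, *S100b* and *Sox9* lie above it.

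Within groups, the members varied together in part. Correlations were taken over the 70 libraries after the mean of each group and cohort was subtracted, and 22 of 45 pairs passed adjustment over the 45 (100000 permutations, 20 positive and 2 negative). The closest pair was *Gja1* and *Glul* (r = 0.73, rho = 0.73, permutation p = 1e-05 for each, the smallest they can give, adjusted p = 6.43e-05 and 7.5e-05, r = 0.71 without the 2 farthest libraries). *Aldh1l1* and *Glul* followed (r = 0.65, rho = 0.60, r = 0.60 without 2), then *Aqp4* and *Gja1* (r = 0.62, rho = 0.67, r = 0.64 without 2), with the same permutation p. *Slc1a2*, *Glul*, *Aqp4* and *Gja1*, genes of uptake, glutamine synthesis, water and gap junctions, were correlated in all 6 pairs, with r from 0.42 to 0.73. *Slc1a3*, the other uptake gene, passed adjustment with *Gja1* (r = 0.55) and *Glul* (r = 0.35). With *Slc1a2* (r = 0.15) and *Aqp4* (r = 0.21) it did not pass by r, though it did by rank (rho = 0.31 and 0.32).

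The 2 glutamate transporters were not correlated by r (r = 0.15, permutation p = 0.231, adjusted p = 0.346), though they were by rank (rho = 0.31, permutation p = 0.00878, adjusted p = 0.0198, r = 0.32 without 2). Without sedentary replicate 6 and 14-7-0 replicate 4 (n = 68) they were correlated by both (r = 0.33, rho = 0.40, permutation p = 0.00499 and 0.00096, adjusted p = 0.0118 and 0.003, r = 0.31 without 2 more). *Slc1a2* was negatively correlated with *S100b* (r = -0.45, rho = -0.40, permutation p = 0.00015 and 0.0007, adjusted p = 0.000562 and 0.00242, r = -0.36 without 2) and with *Vim* (r = -0.42, rho = -0.27, permutation p = 0.00024 and 0.0229, adjusted p = 0.000831 and 0.0447, r = -0.29 without 2). Without sedentary replicate 6 and 14-7-0 replicate 4 the relation with *Vim* no longer passed by rank (rho = -0.19, permutation p = 0.121, adjusted p = 0.206, with r = -0.29, permutation p = 0.0146, adjusted p = 0.0299). *Slc1a3*, in contrast, rose with *S100b* (r = 0.53, rho = 0.42, permutation p = 1e-05 and 0.00036, adjusted p = 6.43e-05 and 0.00135, r = 0.52 without 2). *Gfap* and *Vim*, the 2 filament genes, had r = 0.34 (rho = 0.33, permutation p = 0.00383 and 0.00495, adjusted p = 0.00907 and 0.0131, r = 0.30 without 2). The values share library composition, so these figures describe libraries and not single astrocytes.

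The same values were set against summed markers of 9 other cell types or tissues, in 90 correlations with p adjusted over the 90. Of these, 34 passed adjustment by r. *Vim* rose with ependymal markers (r = 0.67, rho = 0.61, r = 0.60 without 2), oligodendrocyte markers (r = 0.56, rho = 0.51, r = 0.50 without 2) and thalamus markers (r = 0.55, rho = 0.59, r = 0.42 without 2), with a permutation p of 1e-05 and an adjusted p of 0.00018 in each. *Gfap* rose with microglia markers (r = 0.66, rho = 0.60, permutation p = 1e-05, adjusted p = 0.00018, r = 0.62 without 2) and was negatively correlated with choroid plexus markers (r = -0.44, rho = -0.32, permutation p = 0.0002 and 0.00738, adjusted p = 0.00138 and 0.0255, r = -0.36 without 2). *Gfap* also rose with markers of hippocampal neurons (r = 0.46, rho = 0.62, r = 0.60 without 2) and oligodendrocytes (r = 0.41, rho = 0.46, r = 0.52 without 2). With markers of meninges and fibroblasts *Gfap* was negatively correlated (r = -0.44, rho = -0.36, r = -0.41 without 2). *Slc1a2* rose with markers of hippocampal neurons (r = 0.56, rho = 0.40, permutation p = 1e-05 and 0.00069, adjusted p = 0.00018 and 0.00622, r = 0.36 without 2), a relation that fell to r = 0.31 without sedentary replicate 6 and 14-7-0 replicate 4. *S100b* rose with oligodendrocyte markers (r = 0.47, rho = 0.39, permutation p = 8e-05 and 0.00078, adjusted p = 0.0008 and 0.00622, r = 0.41 without 2). *Gja1* passed adjustment with none of the 9 lists. The part of each cell type in the level of a member was not tested.

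**Figure D4:**
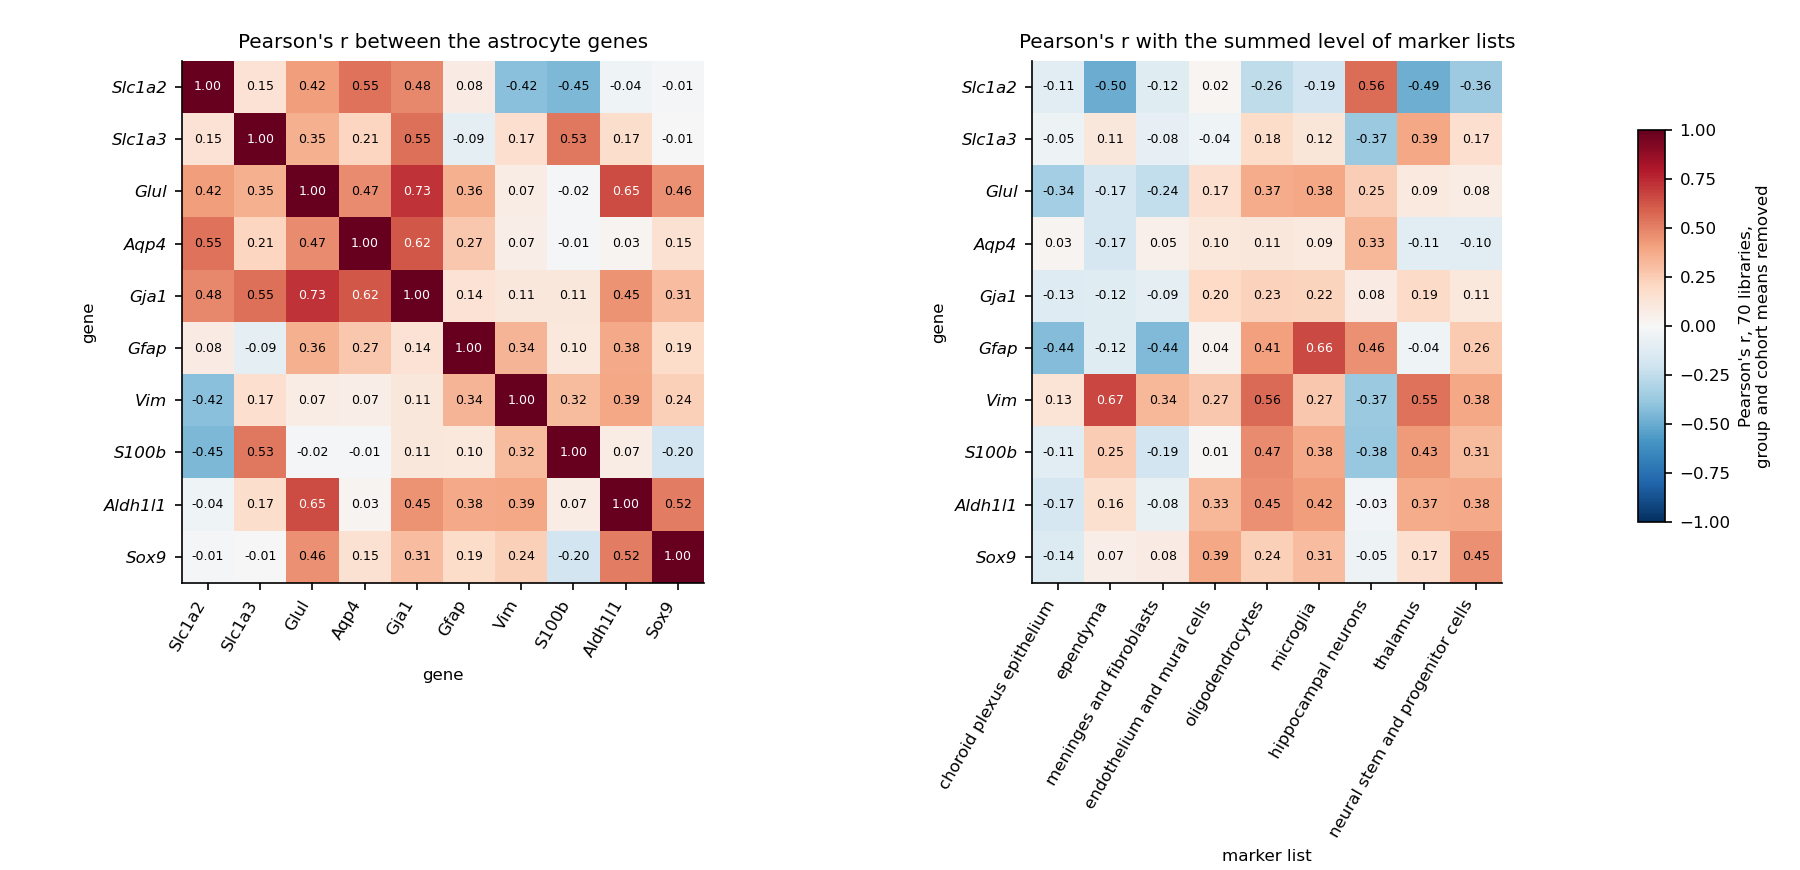
Pearson's r over 70 libraries, group and cohort means removed, between the 10 astrocyte genes (left) and between each gene and the summed level of 9 marker lists (right), with red positive and blue negative. *Slc1a2*, *Glul*, *Aqp4* and *Gja1* form a positive block (r from 0.42 to 0.73), and *Vim* with ependyma (0.67) and *Gfap* with microglia (0.66) lead the right panel.

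The genes whose levels followed each member most closely were taken over all 12994 genes by Pearson's r on the same values (n = 70), as a description. For *Gja1* the nearest were *Glul* (0.73), *Bmpr1b* (0.70), a bone morphogenetic protein receptor, and *Elovl5* (0.66), a fatty acid elongase, and *Gja1* had 4 other members among its nearest 100 genes. For *Slc1a3* they were *S1pr1* (0.74), a sphingosine phosphate receptor, *Gad1* (0.73), the GABA-synthesising enzyme, and *Rcan3* (0.71). For *Slc1a2* they were *Zhx3* (0.88), *Dip2c* (0.86) and *Ppm1k* (0.86), and for *Glul* *Ube2h* (0.82), *Mvb12b* (0.81) and *Laptm5* (0.81). *Vim* lay nearest to *Clec3b* (0.84), *Anxa5* (0.79) and *Apod* (0.77), and *S100b* to *Fez1* (0.82), *Dynlrb1* (0.82) and *Scg5* (0.79). *Gfap* lay nearest to *Lgi4* (0.76), *B4gat1* (0.73) and *Arpc4* (0.71), and *Aqp4* to *Spire1* (0.68), *Mmgt1* (0.67) and *Mfap3l* (0.66). *Aldh1l1* lay nearest to *Slc39a7* (0.83), *Pcx* (0.80), which encodes pyruvate carboxylase, and *Os9* (0.80), and *Sox9* to *Zbtb12* (0.79), *Acyp1* (0.76) and *Fcgrt* (0.76). Except for *Glul* beside *Gja1*, none of these 30 places was taken by another member.

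A wider set of 79 astrocyte genes in 5 lists, none of them a member, was read the same way. Of these, 72 were tested. The other 7 had means below 1 FPKM and were all from the list of filament and reactive genes: *Lcn2*, *Cd44*, *Timp1*, *Steap4*, *Cxcl10*, *Ptx3* and *Tgm1*. *Lcn2*, a classical mark of reactive astrocytes, averaged 0.0853 FPKM and reached at most 0.317 in any library. Others of that list were well above the minimum, *Serpina3n* averaging 36.9 FPKM and *H2-D1* 18.2. Of its 13 genes tested, 3 were called in 14-0-0 against sedentary, all higher (6.11% of all genes were called higher). In 14-7-0 1 was called, higher (3.26% of all genes were called), and in 14-7-2 1, lower (2.32% were called lower). None of the 72 passed adjustment in any of the 6 comparisons with sedentary or the 2 between running groups.

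In 14-7-2 against 14-7-0, 8 of the 72 were called (background 5.39%), 7 of them lower (3.36%), and the median difference was -0.066. *Thbs4*, a secreted thrombospondin that promotes synapse formation, was 3.00 to 5.49 FPKM in 14-7-2 and 4.58 to 9.002 in 14-7-0 (log2 difference -0.58, SE 0.13, p = 0.000178, adjusted p = 0.487). *Megf10*, an engulfment receptor, was 4.59 to 5.68 against 5.46 to 7.43 FPKM (log2 difference -0.25, p = 0.000227, adjusted p = 0.487). *Clu*, a secreted chaperone, was 341 to 563 against 509 to 623 FPKM (log2 difference -0.25, p = 0.00367, adjusted p = 0.534). *Sparcl1*, a synapse-promoting matrix protein, was 428 to 524 against 529 to 570 FPKM (log2 difference -0.14, p = 0.00376, adjusted p = 0.534). In the list of glutamate handling, *Grm3*, a metabotropic glutamate receptor, was lower (log2 difference -0.20, p = 0.00788, adjusted p = 0.66).

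Against sedentary, 4 of 72 were called in 14-7-0 (background 3.26%), 4 in 0-0-2 (2.37%) and 2 in home cage (2.3%). In 14-0-0 9 were called (background 9.15%), 7 of them higher (6.11%), and in 14-14-0 8 (4.95%), 6 of them higher (3.19%). In 14-7-2 7 were called (background 4.39%), 6 of them lower (2.32%). *Thbs4* (-0.32, p = 0.039), *Megf10* (-0.16, p = 0.0175) and *Grm3* (-0.17, p = 0.0475) were lower in 14-7-2 here too, and the 2 comparisons share the 14-7-2 libraries. *Slc38a5*, a glutamine transporter, was 1.43 to 4.27 FPKM in sedentary and 2.77 to 8.11 in 14-0-0 (log2 difference 0.65, SE 0.20, p = 0.00442, adjusted p = 0.312). *Trpv4*, a cation channel of the endfoot list, was 0.304 to 17.6 FPKM in 14-0-0 and 0.217 to 0.798 in sedentary (log2 difference 1.88, p = 0.00395). *Trpv4* is also made by choroid plexus epithelium, whose 10 markers were all called higher in the same comparison, and their part in its value was not tested.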

How the data were processed

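RNA-seq libraries of dorsal hippocampus (70, 10 per group) were grouped by GEO's labels. The authors deposited FPKM per gene, using the Tuxedo protocol on single-end 50 bp reads (ELAND v2e and Bowtie alignment, unique hits, at most 2 mismatches). The submitters' processing notes name mm10, Bowtie and Cuffnorm, and the annotation is not given in the sources used here. FPKM are already scaled per library, so composition can move them.

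Values were taken as log2(FPKM + 0.1) for 12994 of 24346 genes, those averaging 1 FPKM or more. Groups were compared pair by pair with limma 3.58.1 in R 4.3.3 (moderated test, two-sided, trend), without covariates, adjusted over all genes tested (Benjamini-Hochberg). Differences understate the change of low genes. The test was checked on simulated data. Labels call samples replicates without naming litters, so p-values measure the spread between these samples. Relative depth was the mode, over genes averaging under 0.1 FPKM, of log2 ratios to a reference library. Correlations used 100000 permutations in scipy 1.17.1 (two-sided). Marker sums are FPKM. Nearest genes were the 3 of highest r per member, and list genes named were at most 4 per list by smallest p. Genes of those lists below the minimum were named too. Promoters and positions came from RefSeq, build GRCm38.p6.

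The members and lists were chosen with earlier results of these data known. Alternatives are given in the closing section. Running distances, RT-qPCR, behavior and recordings were not analysed here. A single list result is not reported here.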

Additional observations from a re-analysis of the deposited data

Results flagged for a closer look

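Within groups of 10, a library was marked when its gap to the nearest other exceeded the 95% limit of Dixon's test relative to the group's range. This held in 3 of 70 groups of values (10 genes in 7 groups), where about 3.5 are expected by chance at 1 in 20. *Slc1a2* was 203 FPKM in 0-0-2 replicate 8, the lowest of its group. *Glul* was 802 FPKM in 14-0-0 replicate 0, the highest of its group, and 444 FPKM in 14-7-2 replicate 9, the lowest of its group. That last library had the lowest *Glul* and *Aldh1l1* (10.01 FPKM) of all libraries. Its sum over 27 genes of the list of astrocyte identity and secreted genes, 1869 FPKM, was also the lowest of all. Its oligodendrocyte sum, 1569 FPKM, was the lowest of its group. Without 14-7-2 replicate 9 the fall of *Glul* in 14-7-2 against 14-7-0 was still called.

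*Aqp4* was marked because its difference after the 14 added sedentary days had an unadjusted interaction p under 0.05 between the harvest cohorts. In 14-14-0 against 14-0-0 the log2 difference was -0.22 in the first cohort and 0.070 in the second, and the second minus the first was 0.29 (limma interaction, SE 0.12, p = 0.0251, adjusted p = 0.22). It was the 1 result under 0.05 of 80 members by comparisons tested, and in that comparison 17.3% of all genes had an interaction p under 0.05.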

How the results depend on the processing

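Of 8 called log2 differences, none changed sign in 103 alternative values, and 82 of these values were still called. Of 82 differences not called, 75 of 1127 alternative values had the opposite sign, the largest at 0.095 on the log2 scale, and 11 were called. The number of members called moved in both directions. In 14-7-2 against sedentary (2 called) it was 1 under quantile normalization, a joint fit of the 7 groups, a cohort covariate, the second cohort alone and without the 4 libraries high in thalamus markers, 3 at a minimum mean of 5 FPKM (*Glul* added), and 0 under the regularized test after Cyber-T, in the first cohort alone and at p under 0.01. In home cage (1 called) it was 2 under quantile normalization and 0 under Cyber-T, in either cohort alone, without sedentary replicate 6, without the 4 libraries high in thalamus markers and at p under 0.01. In 14-7-2 against 14-7-0 (2 called) it was 3 under quantile normalization, a cohort covariate and without the 4 libraries high in thalamus markers, *S100b* being added in each, and 1 under Cyber-T, in the second cohort alone and at p under 0.01. For harvest cohort (3 called) it was 2 under Cyber-T. It was 1 in 14-0-0 with the choroid plexus covariate, 1 in 14-14-0 against 14-0-0 in the first cohort alone, and 0 for the test among all groups in either cohort alone and at p under 0.01. Leaving out 1 library at a time, the count ran from 1 to 4 in 14-7-2 against sedentary, from 0 to 1 in home cage and from 2 to 3 in 14-7-2 against 14-7-0. The causes were not tested, though single cohorts hold 5 libraries a group. Under Cyber-T, *Slc1a3* also had p = 0.0528 between cohorts. Leaving out the thalamus-high libraries and each library in turn were chosen after seeing the data.

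Labels number the replicates 0 to 9 in every group. Deviations of same-numbered libraries did not correlate above 0.1 in every pair in any comparison (2 to 7 of 10 pairs), and at most 3 of 10 libraries correlated best with their own number, so the numbers were not taken to pair libraries. With the replicate block, 14-7-2 against sedentary had 1 member called, *Gfap* having p = 0.0535, and *S100b* was called in 14-7-2 against 14-7-0 (p = 0.0329), making 3. The number of correlated pairs stayed within 1.5 times its value without 2 libraries and under median ratio scaling.

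Read counts are not in the table. The paper lists total reads per sequencing sample, but under codes that do not name the groups. The absolute depth of a given library is therefore not known here. For *Sox9*, the lowest member, intervals against sedentary reached 0.51 on the log2 scale.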
